A study of Mus musculus with 12 samples.

Results

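The presynaptic active zone hosts are 10 mouse genes whose proteins build the site of vesicle release: Rims1, Rims2, Erc1, Erc2, Bsn, Pclo, Rimbp2, Unc13a, Unc13b and Unc13c. They were taken by gene name from a table of back-splice junctions and from a table of gene expression. In the junction table they held 49 of 7025 listed junctions and were 10 of 2947 named hosts. All 10 were also among the 24318 genes of the expression table. RNA came from the hippocampus of 7-month-old mice, either 5xFAD or wild type (WT), with 3 libraries of each genotype in each table. 5xFAD mice carry human transgenes with familial Alzheimer's disease mutations, driven in neurons by Thy1 regulatory sequence, and the labels name no other allele or treatment for either genotype. The junction table covers the libraries whose titles begin with AT and the expression table those that begin with CG. The design text names an rRNA-depleted preparation and an A-tailed one treated with RNase R, an enzyme that digests linear RNA, without tying either to a prefix.

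At the active zone, Rims, Erc, Bassoon, Piccolo and RIM-binding proteins form a scaffold that holds calcium channels and docked vesicles together, and Munc13 proteins prime those vesicles for fusion. Back-splicing joins the end of an exon to the start of the same or an earlier exon, which closes the RNA into a circle. The reads across that join are what the junction table counts. Circular RNA is abundant in neurons, and genes of synaptic proteins are well-known hosts.

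The AT libraries held 191408, 683540 and 659414 junction reads in 5xFAD and 438790, 695539 and 695528 in WT. A signal value is a read number times a factor of that library, so 1 read was worth 0.866, 0.226 and 0.239 signal units in 5xFAD and 0.374, 0.228 and 0.234 in WT. The shallowest library, 5xFAD replicate 1, also stood apart in its values, with correlations of 0.617 to 0.710 with the other AT libraries (log scale, across junctions). In the CG set, the library labelled 5xFAD replicate 3 went against its label for Thy1, which was at 1136, 1172 and 305 FPKM in the libraries labelled 5xFAD and 296, 308 and 340 in WT. For the long non-coding RNA Malat1 it was like the others of its label, since Malat1 was listed at 0 in all 3 libraries labelled 5xFAD. In WT, Malat1 was at 3608, 3288 and 3425 FPKM. Whether the listed 0 reflects expression was not tested. FPKM differences are therefore given with and without the library labelled 5xFAD replicate 3. Whether the AT library of that number has the same source is not stated. The summed FPKM of 6 neuronal markers ran from 1755 to 1898 in 5xFAD and 1848 to 1932 in WT, and that of 6 hippocampal neuron markers from 186 to 194 in 5xFAD and 198 to 210 in WT, without overlap. That of 6 microglial markers was 417, 414 and 134 in 5xFAD and 120 to 146 in WT. Choroid plexus markers, 6 again, stood apart in a library of each genotype, with sums of 58.1, 75.4 and 497 in 5xFAD and 2875, 44.4 and 66.9 in WT. All 6 markers of each of these lists were above 0.5 FPKM, and their part in the results was not tested. Nothing in the labels ties a library to its own mouse, so a p-value here covers the spread among libraries, which may be technical in part or whole.

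The RIM genes dominated the group's junction signal. Rims1 and Rims2 encode the scaffold proteins that bind Rab3 on vesicles and recruit calcium channels. Between them they gave 57.3%, 74.4% and 72.6% of the hosts' junction reads in 5xFAD and 63.7%, 71.4% and 65.8% in WT. The 10 hosts together held 1.12%, 1.35% and 1.16% of all junction reads in 5xFAD (2140, 9212 and 7646 reads) and 1.06%, 1.20% and 1.04% in WT (4649, 8325 and 7217 reads). The Wilson 95% interval of the lowest share was 1.01% to 1.06% and that of the highest 1.32% to 1.38%, counting error only.

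Rims1 had a summed signal of 659, 841 and 842 in 5xFAD and 689, 800 and 659 in WT, which placed it 23rd among the named hosts by mean level. Rims2 had 403, 707 and 486 in 5xFAD and 419, 554 and 451 in WT, rank 42. Both genes overlapped between genotypes, with the lowest value of each in 5xFAD replicate 1, for Rims1 level with WT replicate 3. The median host of the whole table had a mean summed signal of 16.4, and the median of the 10 active zone hosts was 54.7.

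The Erc genes encode the ELKS and CAST proteins, which bind RIM and Bassoon. Erc2, the member largely restricted to brain, had summed signals of 452, 257 and 228 in 5xFAD and 295, 262 and 266 in WT. Its highest value thus lay in 5xFAD replicate 1, and the other 2 libraries of that genotype were below every WT library. Erc1, which is expressed in many tissues, had 62.4, 42.9 and 42.5 in 5xFAD and 93.2, 35.8 and 49.8 in WT, with the widest spread within WT. Rimbp2, whose protein links RIM to calcium channels, had 59.8, 38.6 and 51.9 in 5xFAD and 60.2, 47.6 and 71.6 in WT.

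The Munc13 family split widely. Unc13b, which encodes Munc13-2, had summed signals of 186, 121 and 150 in 5xFAD and 150, 162 and 178 in WT. Unc13a, which encodes Munc13-1, the main priming factor of most forebrain synapses, had only 14.7, 4.07 and 10.04 in 5xFAD and 9.36, 2.96 and 0 in WT. Unc13c, which encodes Munc13-3 and is best known from the cerebellum, had 5.20, 2.49 and 3.11 in 5xFAD and 0, 0.456 and 3.74 in WT. A library at 0 allows up to 3 reads, a signal of 0.702 in WT replicate 3 and 1.12 in WT replicate 1 (counting error only).

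Bsn and Pclo encode Bassoon and Piccolo, the giant scaffold proteins of the active zone, and gave little junction signal. Bsn had 9.53, 7.46 and 0.239 in 5xFAD and 10.5, 11.8 and 3.74 in WT, and its lowest value, in 5xFAD replicate 3, is 1 read. Pclo had 1.73, 59.9 and 14.6 in 5xFAD and 13.1, 20.5 and 4.21 in WT, a range of 2 to 265 reads within 5xFAD alone. Both genes thus varied widely within a genotype. In the order of WT means, neighbouring hosts overlapped for Rimbp2 and Erc1, Pclo and Bsn, Bsn and Unc13a, and Unc13a and Unc13c. The steps from Rims1 to Rims2, Erc2, Unc13b and Rimbp2, and from Erc1 to Pclo, were separate in all 3 WT libraries.

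**Figure D1:**
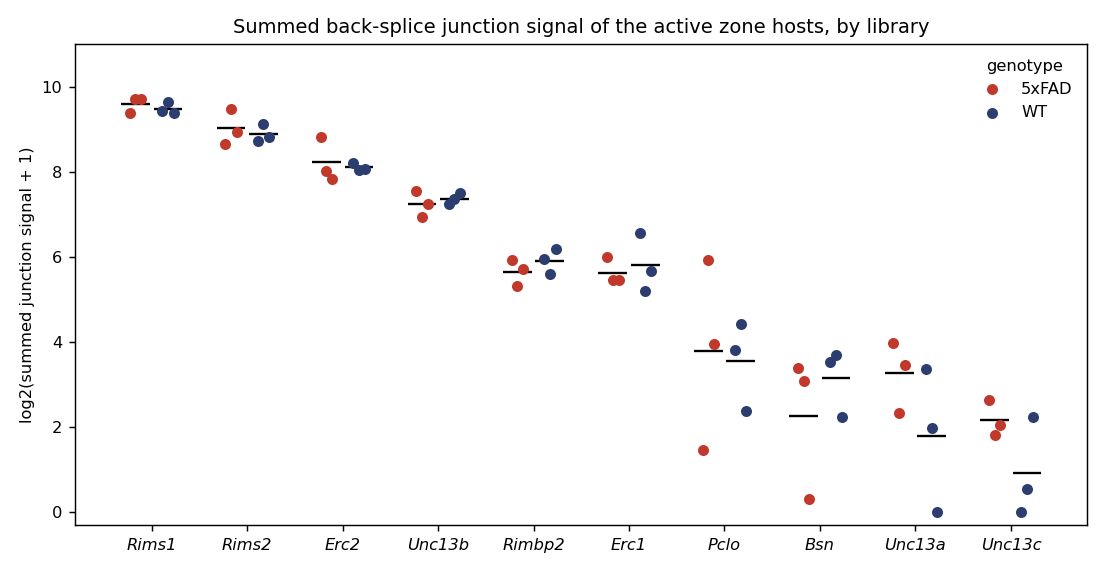
Summed back-splice junction signal of each active zone host, as log2(sum + 1), with hosts ordered by mean level; each point is 1 AT library (3 of 5xFAD, 3 of WT) and each bar the mean of the logs. Genotypes overlap in every host, and the spread widens from Rims1 (659 to 842) to hosts with few reads such as Pclo (1.73 to 59.9).

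Junction numbers were as uneven as the levels. Rims2 had 13 listed junctions, Rims1 and Erc2 had 10 each, Rimbp2 had 5, Unc13b had 4, Erc1 had 3, and Bsn, Pclo, Unc13a and Unc13c had 1 each. The median was 3.5, against 1 over all hosts, and 3 of the 51 hosts with at least 10 junctions were in the group. Pooled over the members, the junctions were also long. The distance between the joined ends had a median of 27.7 kb, against 9.52 kb over the table, and 28.6% (14 of 49) spanned at least 50 kb, against 9.71%. Those long spans lay in Rims1, Rims2, Erc2 and Rimbp2, and the longest, of 277 kb in Erc2, ran from 28853528 to 29130500 on chromosome 14. Elsewhere the longest span was 39.5 kb in Erc1, 27.3 kb in Unc13b and at most 2.34 kb in the hosts with 1 junction. Coordinates are mm9 as the file gives them. Whether starts count from 0 or 1 could not be determined from the file, and exon positions were not used here. These figures describe the genes and carry no test.

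In Rims1, most reads crossed 1 join. The dominant junction, chr1:22336373-22369621, had a signal of 388, 486 and 535 in 5xFAD and 425, 465 and 417 in WT. It was the top junction of the gene in all 6 libraries, with 58.9%, 57.8% and 63.6% of the gene's junction reads in 5xFAD and 61.7%, 58.1% and 63.3% in WT, and ranked 24th of all listed junctions. The second, chr1:22363424-22369621, shares its end and held 8.55% to 16.3%. Together, joins at the end 22369621 made up 72.2% to 75.2% of Rims1 reads in every library, a narrower range than either junction alone.

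Rims1 junctions clustered at a few ends. The start 22336373 was used by 4 of the 10 and carried 62.8% to 70.4% of the reads. Rims1 lies on the minus strand (RefSeq, GRCm38.p6), so that start is the downstream end of the circle. Both that start and 22363424 were joined to both of the ends 22369621 and 22387644, so all 4 possible joins of these ends were listed.

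In Rims2, the leading junction was less fixed. Overall it was chr15:39398488-39448056, at 65.8, 403 and 201 in 5xFAD and 183, 235 and 176 in WT. It led in 5 of 6 libraries, with 57.0% and 41.4% of Rims2 reads in 5xFAD replicates 2 and 3 and 43.5%, 42.5% and 39.0% in WT. In 5xFAD replicate 1 it held 16.3% (76 of 465 reads, exact 95% interval 13.1% to 20.0%). There chr15:39417135-39448056 led with 36.1% (interval 31.8% to 40.7%). That second junction was steadier across libraries, at 146, 148 and 136 in 5xFAD and 98.0, 170 and 151 in WT.

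As many as 6 of the 13 Rims2 junctions shared the end 39448056, which carried 57.8%, 81.2% and 75.0% of the gene's reads in 5xFAD and 72.5%, 77.9% and 75.1% in WT. A separate cluster used the starts 39106521 and 39123647 with the ends 39123858 and 39177166, again with all 4 joins listed. Of the 5 members with at least 4 junctions, Rims1 and Rims2 had such a complete set, as did 91 of 508 such hosts in the table. One of the Rims2 joins, 39123647 to 39123858, spans 211 bp, and another, 39176855 to 39177166, spans 311 bp.

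**Figure D2:**
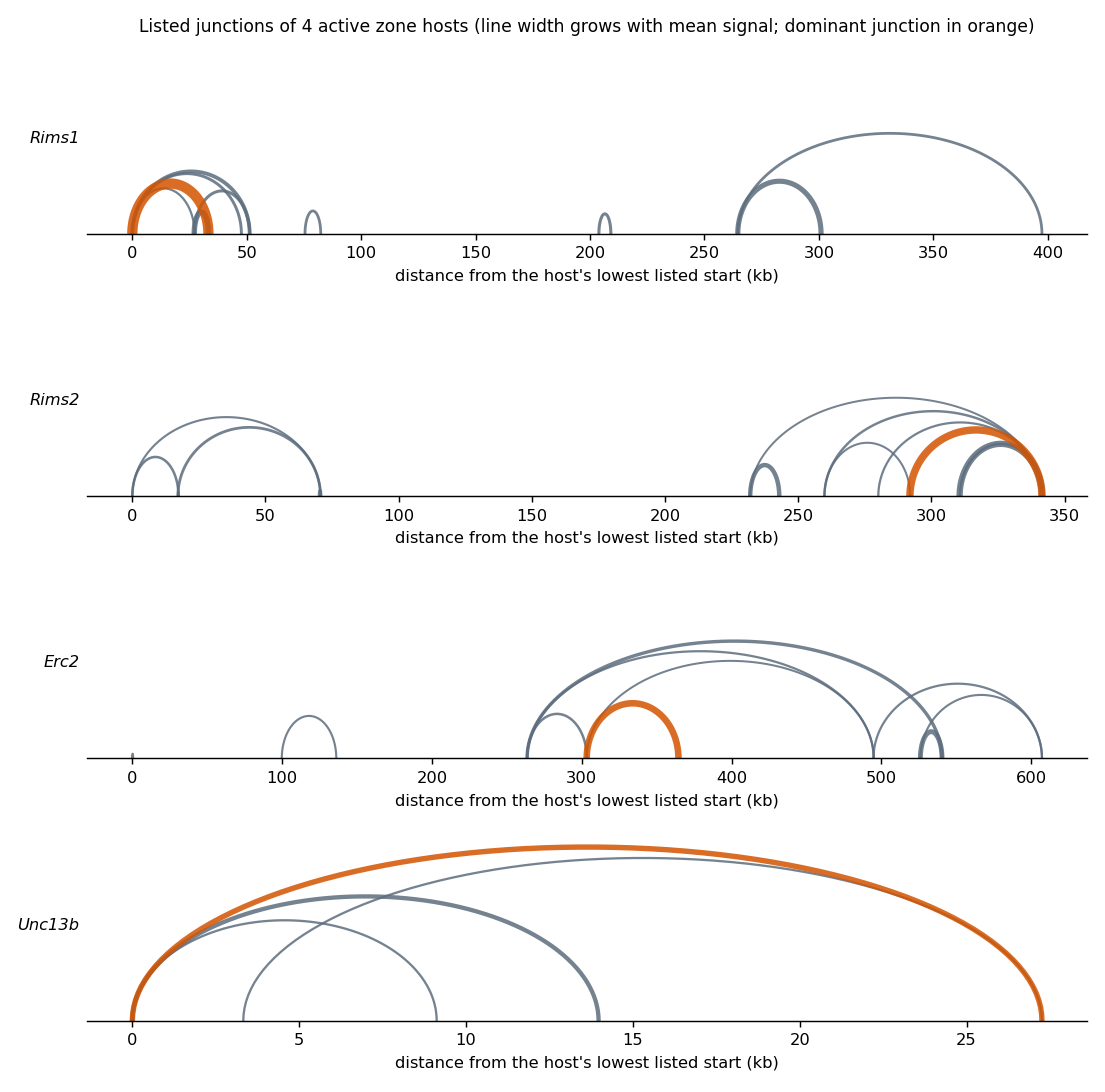
Listed junctions of Rims1, Rims2, Erc2 and Unc13b, drawn as arcs between the joined ends against the distance in kb from each host's lowest listed start; line width grows with the mean signal over 6 AT libraries, arc height has no unit, and the dominant junction is orange. The 6 Rims2 arcs that meet at 1 end and the 277 kb arc of Erc2 stand out.

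Erc2 had the same dominant junction in every library. chr14:28893317-28954567 gave a signal of 261, 104 and 102 in 5xFAD and 192, 113 and 167 in WT. Its share was 57.7%, 40.7% and 44.9% in 5xFAD and 64.9%, 43.2% and 62.6% in WT. The second, chr14:29116061-29130500, had 133, 63.7 and 62.6 in 5xFAD and 49.0, 79.8 and 50.1 in WT, so in WT replicate 2 the 2 junctions were closer than in the other WT libraries. Erc2 lies on the plus strand, and 3 junctions left from the start 28853528, among them the 277 kb join with 3.45% to 19.6% of the reads.

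All 3 Erc1 junctions shared the start 119644588 on chromosome 6, the downstream end of this minus-strand gene. The join to 119672326 had 28.6, 11.5 and 21.0 in 5xFAD and 41.5, 11.4 and 22.9 in WT. The join to 119684110 had 19.9, 20.6 and 17.4 in 5xFAD and 35.2, 17.5 and 16.4 in WT. The first led in 4 libraries and the second in replicate 2 of both genotypes, where it held 47.9% of 190 reads in 5xFAD (interval 40.6% to 55.2%) and 49.0% of 157 reads in WT (41.0% to 57.1%).

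Rimbp2, on the minus strand, was led by either of 2 distant junctions. chr5:129343537-129351546 had the highest mean signal over all 6 libraries, 28.6, 14.5 and 15.1 in 5xFAD and 28.8, 10.03 and 22.0 in WT, and led in replicate 1 of both genotypes. chr5:129267214-129286251 had 4.33, 14.5 and 19.8 in 5xFAD and 8.98, 20.7 and 33.0 in WT, and led in 5xFAD replicate 3 and WT replicates 2 and 3. In 5xFAD replicate 2 both had 64 reads. Replicate 1 of each genotype had the lowest share of that second junction, at 7.25% in 5xFAD and 14.9% in WT, against 37.4% to 46.1% in the other 4 libraries.

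Unc13b, on the plus strand, sent nearly all its reads from 1 upstream end. The start 43100774 on chromosome 4 was used by 3 of 4 junctions and carried 95.7% to 98.0% of the reads in every library. The dominant junction, chr4:43100774-43128032, had 91.8, 70.0 and 92.3 in 5xFAD and 94.3, 95.5 and 125 in WT. It was the one junction of the group whose genotypes did not overlap, lower in 5xFAD, where 11.1% of all junctions did not overlap in either direction. The second, chr4:43100774-43114746, had 78.0, 42.3 and 43.0 in 5xFAD and 44.9, 53.8 and 46.3 in WT.

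The 4 hosts with 1 listed junction used short spans. The Bsn junction, chr9:108041517-108041926, spans 409 bp, the Pclo junction, chr5:14539409-14540801, spans 1392 bp, the Unc13a junction, chr8:74168451-74169882, spans 1431 bp, and the Unc13c junction, chr9:73582210-73584551, spans 2341 bp. In the hosts with more than 1 junction, 84.4% of the members' junctions (38 of 45) shared a start or an end with another, against 71.6% over the table.

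**Figure D3:**
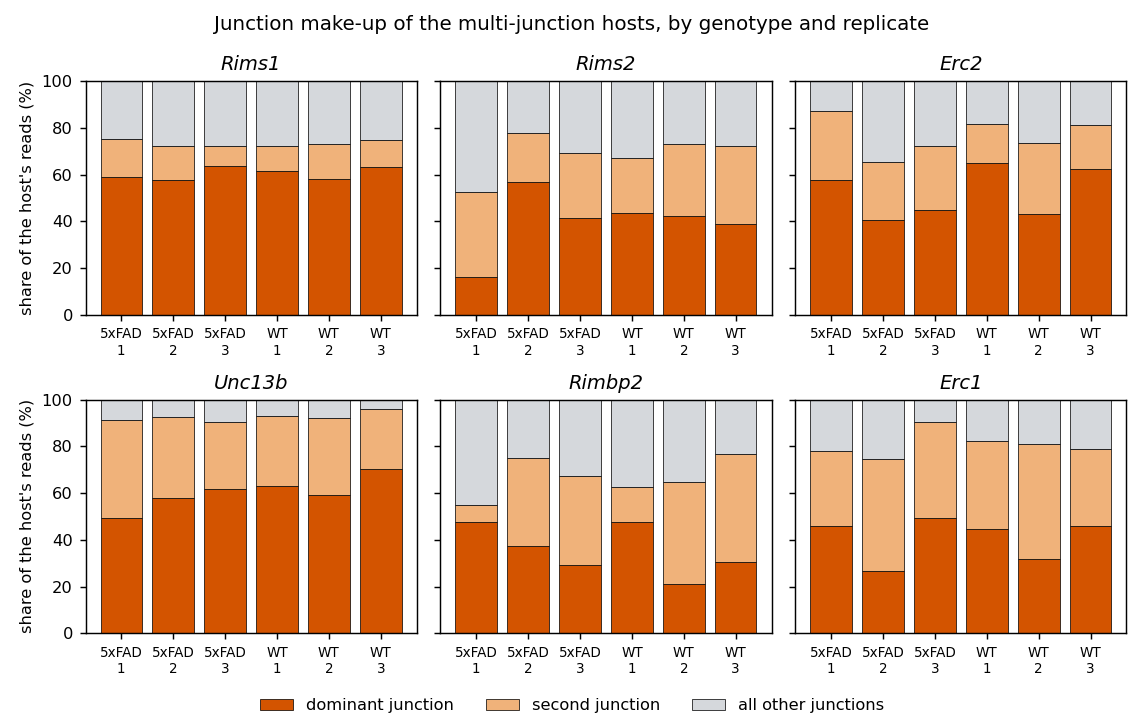
Share of each host's junction reads (percent) held by its dominant junction, its second and all others, in each of the 6 AT libraries, for the 6 hosts with more than 1 junction; bars are ordered 5xFAD replicates 1 to 3, then WT. Rims1 keeps 57.8% to 63.6% in its dominant junction, whereas that of Rims2 runs from 16.3% to 57.0%.

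In the expression table, the order of the genes was another one. In WT, Pclo averaged 72.8 ± 2.55 FPKM and Bsn 70.2 ± 4.24 (SD, n = 3 each), and their ranges overlapped. Rims1 followed at 56.8 ± 2.39, Erc2 at 56.5 ± 5.93 and Unc13a at 54.9 ± 2.90, which overlapped as neighbours. Rimbp2 was at 36.2 ± 4.51, Rims2 at 22.3 ± 1.59, Erc1 at 16.3 ± 0.286, Unc13b at 10.02 ± 1.42 and Unc13c at 5.43 ± 2.67, each separate from its neighbour in the order. FPKM is scaled to transcript length, so these levels may be compared between genes. A junction signal is a number of reads across a join and is not scaled to length.

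Set side by side, the 2 tables put the members far apart. Per FPKM of the gene in WT, the summed junction signal in WT was 21.3 for Rims2, 16.3 for Unc13b and 12.6 for Rims1. These ranked 87, 115 and 161 among the 2934 hosts with both values and a mean WT FPKM of at least 0.5. It was 4.86 for Erc2, 3.65 for Erc1 and 1.65 for Rimbp2, against a median of 1.08 over all such hosts. The lowest were Unc13c at 0.258, Pclo at 0.173, Bsn at 0.124 and Unc13a at 0.0748, with ranks from 2432 to 2812. The Unc13a value rests on few reads, with 1 of its 3 WT libraries at 0.

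The Munc13 paralogs showed the contrast most plainly. Unc13a had the higher FPKM, at 59.7, 48.9 and 48.7 in 5xFAD and 57.9, 54.8 and 52.1 in WT. Unc13b had 10.2, 9.53 and 9.72 in 5xFAD and 11.4, 10.1 and 8.57 in WT. By summed junction signal the order was the opposite in all 6 AT libraries, with at least 121 for Unc13b and at most 14.7 for Unc13a. Likewise, the 2 most expressed members, Pclo and Bsn, had 1 listed junction each. These are different libraries with different units, so the ratio ranks hosts and is not a fraction of circular RNA.

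**Figure D4:**
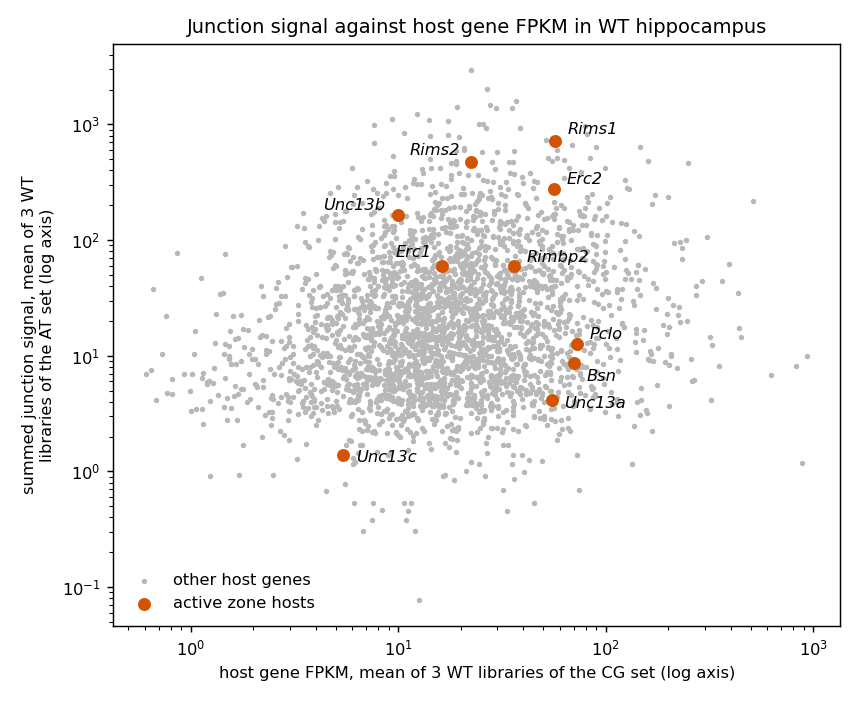
Mean summed junction signal in 3 WT AT libraries against mean FPKM in 3 WT CG libraries, on log axes. Grey points are hosts with a mean WT FPKM of at least 0.5 and a signal above 0, and orange points the active zone hosts. Unc13b lies above and to the left of Unc13a, and Pclo, Bsn and Unc13a lie low at 54.9 to 72.8 FPKM.

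Between genotypes, no member passed a test at any level. Of the 49 junctions, limma on log2(signal + 1) called none at a Benjamini-Hochberg adjusted p under 0.05, and none had an unadjusted p under 0.05. Over the table it called 0% of 7025 junctions, with 399 at an unadjusted p under 0.05. edgeR and DESeq2 on the recovered reads also called no member and had none at an unadjusted p under 0.05; they called 0% and 0.0142% of the table (0 and 1 junctions). The authors' deposited table has an adjusted p under 0.05 for 3.76% of junctions (264), none of them a member, and its smallest member p is 0.104, for the dominant Unc13b junction.

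Every listed junction had at least 2.03 signal units throughout 1 genotype or both. This lowest level was read from the values themselves, not from a stated rule, and its bearing on the direction of low junctions was not tested. Of the members' 49, 32 reached that level in all libraries of both genotypes, 11 only in 5xFAD and 6 only in WT (65.3%, 22.4% and 12.2%, beside 59.8%, 19.5% and 20.8% of all listed junctions). All 11 of the second kind had a positive log2 difference, 5xFAD minus WT, a sign that the cut favours, since it uses these same values. Of the 6 that reached the level only in WT, 3 were also higher in 5xFAD. Of the 32 that reached it in both, 18 were higher in 5xFAD. The 5 positive member junctions with the smallest p all reached that level in 5xFAD alone: 1 each in Erc2, Unc13c, Unc13a, Rims1 and Rims2.

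Of those, the Erc2 join 28893317 to 29084911 was at 9.53, 2.49 and 2.39 in 5xFAD and 0, 5.01 and 0 in WT, a log2 difference of 1.46 (SE 0.76, limma adjusted p = 0.904) that was 0.92 without 5xFAD replicate 1 and 2.32 without WT replicate 2. The Rims1 join 22540237 to 22545462 was at 6.06, 35.3 and 33.0 in 5xFAD and 1.87, 19.6 and 11.9 in WT, a log2 difference of 1.17 with SE 0.78 and a limma adjusted p of 0.918. In both genotypes replicate 1 was the lowest for this join, and the difference was 0.33 without WT replicate 1, 0.76 without 5xFAD replicate 2 and 1.94 without 5xFAD replicate 1. The Rims2 join 39338511 to 39448056 was at 3.46, 2.71 and 5.98 in 5xFAD and 0, 2.51 and 3.27 in WT, 0.98 on the log2 scale (SE 0.67) and 0.33 without WT replicate 1.

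On the lower side, the smallest p belonged to the Rimbp2 join 129267214 to 129286251, given above, with a log2 difference of -0.70 (SE 0.62, limma adjusted p = 0.934). It was -0.12 without 5xFAD replicate 1, -0.30 without WT replicate 3 and -1.18 without WT replicate 1. A second Rimbp2 join, 129343537 to 129352866, was at 9.53, 3.84 and 5.74 in 5xFAD and 7.11, 9.80 and 14.0 in WT, -0.65 on the log2 scale (SE 0.58), and -0.38 without 5xFAD replicate 2. The dominant Unc13b junction differed by -0.31 (SE 0.30, limma adjusted p = 0.936), and by -0.18 without 5xFAD replicate 2 and -0.17 without WT replicate 3. The Rims1 join 22336373 to 22384029 differed by -0.82 (SE 0.83), was 1 read in 5xFAD replicate 1, and turned to 0.34 without that library.

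For the summed signal per host, limma called 0% of 2947 hosts and no member, with 105 hosts and no member at an unadjusted p under 0.05. edgeR called 0% and DESeq2 0.0339% (1 host), none a member. No member's genotypes were separate, against 9.16% of all hosts. Rims1 averaged 781 ± 105 in 5xFAD and 716 ± 74.3 in WT (SD, n = 3 each), a log2 difference of 0.12 with a 95% interval of -0.32 to 0.56. For Rims2 the difference was 0.13 (interval -0.40 to 0.67), for Erc2 0.12 (-0.46 to 0.70), for Unc13b -0.12 (-0.64 to 0.41), for Erc1 -0.18 (-0.99 to 0.63) and for Rimbp2 -0.25 (-0.92 to 0.41). These intervals include 0 and do not show that the genotypes are alike. Without 5xFAD replicate 1, Erc2 turned to -0.18 and Rims1 was 0.24.

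The 4 hosts with 1 junction had the widest intervals. Unc13a differed by 1.47 (interval -0.33 to 3.28), Unc13c by 1.23 (-0.26 to 2.72), Bsn by -0.89 (-2.67 to 0.90) and Pclo by 0.24 (-1.82 to 2.29). Unc13a and Unc13c reached the level of 2.03 signal units only in 5xFAD, and Bsn and Pclo only in WT. Single libraries moved these values: Unc13a was 0.58 without WT replicate 3 and 2.27 without WT replicate 1, Unc13c was 0.76 without WT replicate 1 and 1.89 without WT replicate 3, Bsn was 0.09 without 5xFAD replicate 3, and Pclo was 1.40 without 5xFAD replicate 1 and -0.84 without 5xFAD replicate 2.

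The share of the dominant junction was tested over the 1390 hosts with at least 2 junctions, and limma called 0% of them and none of the 6 members, with 88 hosts and no member at an unadjusted p under 0.05. The share averaged 47.7 ± 8.85% in 5xFAD and 56.9 ± 11.9% in WT for Erc2, a difference of -9.15 percentage points (SE 8.10). For Unc13b it averaged 56.2 ± 6.29% in 5xFAD and 64.0 ± 5.64% in WT, -7.76 points (SE 5.78). Over all 6 libraries Rims1 had the narrowest range of the 6 members, at 60.1 ± 3.10% in 5xFAD and 61.0 ± 2.68% in WT (SD, n = 3 each). The Rims2 difference of -3.42 points (SE 10.5) turned to 7.53 without 5xFAD replicate 1, the library in which another junction led.

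In the CG libraries, no member's FPKM passed the test either. With all 6 libraries limma called 0.0069% of 14500 genes (1 gene, Malat1, listed at 0 in 5xFAD), and 424 genes but no member had an unadjusted p under 0.05. Without the library labelled 5xFAD replicate 3 it called 1.2% of 14527 genes (174) and again no member, none of which had an unadjusted p under 0.05. With 6 libraries no member's genotypes were separate, against 5.66% of genes tested. With 5, Rims1 lay higher and Pclo lower in both 5xFAD libraries than in every WT library, against 18.1% of genes separate in either direction. In bulk tissue, fewer cells of a type and less RNA per cell cannot be told apart.

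Rims1 had the smallest p of the group, at 71.5, 62.9 and 58.0 FPKM in 5xFAD and 59.2, 54.4 and 56.9 in WT. Its log2 difference was 0.17 (SE 0.10, limma adjusted p = 1.00) with 6 libraries and 0.24 (SE 0.11, limma adjusted p = 0.979) with 5. Of the others, Unc13c differed by 0.11 and the rest by -0.087 to 0.025 with 6 libraries. With 5, Unc13c was at -0.0036 and the rest at -0.088 to -0.0090, so that Unc13c, Rims2 and Erc1 changed sign. For the abundant genes, the intervals with 6 libraries were -0.23 to 0.12 for Pclo, -0.23 to 0.18 for Bsn and -0.31 to 0.17 for Unc13a. With 5 they were -0.29 to 0.18 for Pclo, -0.30 to 0.23 for Bsn and -0.31 to 0.27 for Unc13a. Pclo was at 70.0, 69.9 and 70.3 FPKM in 5xFAD and 73.3, 75.1 and 70.1 in WT.

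Unc13c varied most among libraries, at 4.08, 6.20 and 6.66 FPKM in 5xFAD and 5.03, 8.28 and 2.98 in WT. Of the 6 cerebellar granule cell markers, only 2 had a mean of at least 0.5 FPKM, and Gabra6 was at most 0.081 FPKM. The 6 together summed to 32.6 to 53.6 in 5xFAD and 41.3 to 57.9 in WT, sums that rest mostly on those 2 genes. The 6 thalamic markers summed to 36.8, 43.1 and 43.6 in 5xFAD and 41.0, 36.4 and 51.5 in WT. The lowest WT sum lay where Unc13c was highest, whereas in 5xFAD the sums rose in the same order as Unc13c. The part of either marker list in the Unc13c values was not tested.

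**Figure D5:**
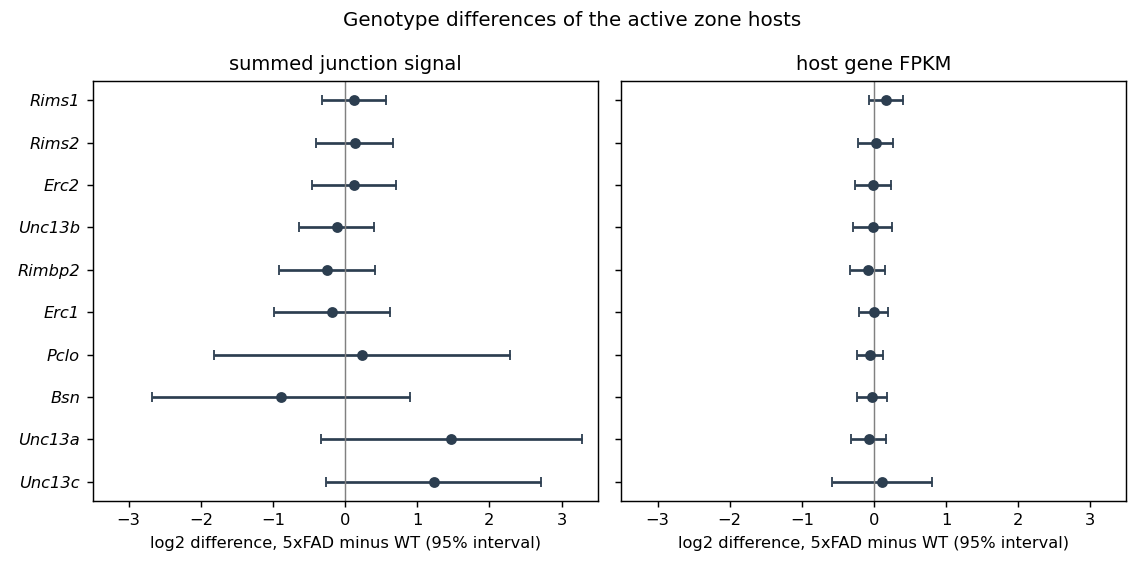
Log2 differences, 5xFAD minus WT, of each active zone host in summed junction signal (left, AT libraries) and FPKM (right, 6 CG libraries), with limma 95% intervals; the library labelled 5xFAD replicate 3 is included. Every interval includes 0, and those of the junction signal are the wider ones, up to Pclo at -1.82 to 2.29.

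A further 45 genes of the active zone and of vesicle priming and fusion were followed in the same fits. Of these, 15 had junctions, 60 in all, and no junction, host or gene of the list was called in either direction. The median host difference was -0.21, with 1 of 15 positive, beside -0.05 over all hosts. Leaving out 1 library at a time gave from 2 of 15 positive to 5 of 15, the latter without 5xFAD replicate 2 (median -0.15). The medians ran from -0.32 without 5xFAD replicate 1 to -0.12 without WT replicate 3. With edgeR the median host difference was -0.13 (3 of 15 positive) beside 0.0025 over all hosts. With DESeq2 it was -0.10 (4 of 15) beside 0.030. The median FPKM difference of the 44 genes tested was -0.03, beside -0.01 over all genes, with 15 of 44 positive. Without the library labelled 5xFAD replicate 3 it was -0.064, beside -0.015 over all genes, with 10 of 44 positive.

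Among these genes, the smallest junction p values belonged to Apba2, which encodes the adaptor Mint2, and to Cacna2d1, a calcium channel subunit. The Apba2 join 71839909 to 71860433 on chromosome 7 was at 5.20, 2.71 and 2.15 in 5xFAD and 0, 0.228 and 0 in WT (log2 difference 1.96, SE 0.48, limma adjusted p = 0.401). The Cacna2d1 join 15805746 to 15825976 on chromosome 5 was at 0, 0.226 and 2.39 in 5xFAD and 7.48, 4.10 and 6.78 in WT (-2.11, SE 0.63, limma adjusted p = 0.673). Both of these low joins reached the level of 2.03 signal units in 1 genotype only, Apba2 in 5xFAD and Cacna2d1 in WT.

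For FPKM, the smallest p of the list was that of Rims3, which encodes a short RIM isoform, at 13.5, 18.6 and 16.8 in 5xFAD and 13.0, 13.1 and 6.57 in WT. Its log2 difference was 0.58 (SE 0.25, limma adjusted p = 1.00), and 0.56 without the library labelled 5xFAD replicate 3. On the lower side, Cacna2d2 differed by -0.36 (SE 0.19, limma adjusted p = 1.00), and by -0.44 without that library. Neither passed.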

How the data were processed

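Both deposited tables were used, with genotype, tissue and age from the labels. Per the submitters' processing notes the build was mm9 and the tool DESeq. For the aligner, junction caller, FPKM program and FPKM denominator, names were not given in the sources used here. One table, of junctions, holds the authors' normalized signal per junction and library, with their deposited log2 ratio and p-value. All signal values were whole multiples of 1 step per library within 0.01, so whole reads were recovered (100%), which gives the depths in the report. Shares of reads have exact (Clopper-Pearson) 95% intervals. The expression table holds FPKM as deposited by the authors; its depth in reads is unknown, with relative depths of 0.796 to 1.16 times WT replicate 1 from the lowest values.

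Each table was fitted whole with limma 3.58.1 (R 4.3.3), with a mean trend, on log2(value + 1), two-sided, 5xFAD minus WT, with Benjamini-Hochberg adjustment over the table and a threshold of 0.05. Fold changes on this scale understate those of low features. FPKM fits took genes with a mean of at least 0.5. Host sums and the dominant junction's percent share, computed from the deposited signal, were fitted likewise, the share without log or trend. The dominant junction has the highest mean over all 6 libraries. edgeR 4.0.16 and DESeq2 1.42.0 were run on the recovered counts, which the authors deposited as scaled signal. Scripts were tested on simulated data. Strand came from RefSeq (GRCm38.p6) for 9 of the 10 hosts. Deviations from the group means of same-numbered CG libraries had r = 0.635, 0.342 and 0.105. The CG library labelled 5xFAD replicate 3 was closer to WT replicate 2 (r = 0.348) than to WT replicate 3. For same-numbered AT libraries, r was 0.220, 0.337 and 0.0967. Pairing was not assumed in the main fits of either set, and a replicate block was run as an alternative.

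Named were all members, each host's 2 leading junctions, the 5 member junctions per direction with the smallest p, and up to 4 listed pathway genes per direction; Gabra6, Thy1, Malat1 and other joins cited for shared ends were chosen after their values were seen. The members and lists were chosen with earlier results of these data known.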

Additional observations from a re-analysis of the deposited data

How the results depend on the processing

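The count of members past the threshold was 0 in every fit of junctions, host sums, dominant shares and FPKM, under each alternative run, including the replicate block (Rims1 0.17 in FPKM, limma adjusted p = 0.917 with the block), which changed no call. At an unadjusted p under 0.05, the junction fit had 1 member with the block, 2 with array quality weights and 1 without each of 5xFAD replicate 1 and WT replicates 1, 2 and 3. The host sums had 2 with the weights and 1 without each of WT replicates 1 and 3, FPKM had 1 with the weights, and the other fits had 0. Over the whole table, the weights gave 519 of 7025 junctions, 187 of 2947 hosts and 1641 of 14500 genes. For junctions the block gave 358, and leaving out 5xFAD replicate 1 or WT replicate 1, 2 or 3 gave 457, 259, 485 and 307. For hosts, leaving out WT replicate 1 or 3 gave 73 and 81. Without the library labelled 5xFAD replicate 3, 174 genes of the FPKM table were called against 1 with all 6, none of them a member. Of 43 differences followed, 27 changed sign under at least 1 alternative, and the cause was not tested. With array quality weights the summed signal of Erc2 became -0.085, the dominant share of Rims2 4.87 points, FPKM of Rimbp2 0.028 and of Unc13b 0.11. With these weights, too, the second junctions of Rims1, Rims2, Erc1 and Unc13b became -0.045, -0.10, 0.016 and -0.16, the dominant junctions of Rims2 and Rimbp2 0.27 and 0.10, and the Rims1 join 22336373 to 22384029 0.23. The dominant Rims2 junction became 0.25 with edgeR and 0.28 with DESeq2, that of Erc2 0.028 with DESeq2, and that of Rimbp2 0.0081 after rescaling to equal totals and 0.013 after quantile normalization. Quantile normalization turned FPKM of Erc2 to 0.0064.

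Leaving out each library in turn gave summed signal differences of -0.092 to 0.31 for Rims2, -0.48 to 0.20 for Erc1, -0.18 to 0.31 for Erc2, -1.46 to 0.088 for Bsn, -0.84 to 1.40 for Pclo and -0.27 to 0.035 for Unc13b. The dominant share ran from -2.70 to 0.22 points for Rims1, -12.8 to 7.53 for Rims2, -4.59 to 6.82 for Erc1 and -1.18 to 12.2 for Rimbp2. FPKM ran from -0.031 to 0.11 for Rims2, -0.046 to 0.039 for Erc1, -0.097 to 0.052 for Erc2, -0.061 to 0.025 for Bsn, -0.12 to 0.072 for Unc13b and -0.19 to 0.42 for Unc13c. For dominant junctions the ranges were -0.0031 to 0.23 in Rims1, -0.76 to 0.54 in Rims2, -0.66 to 0.23 in Erc1, -0.57 to 0.10 in Erc2 and -0.43 to 0.29 in Rimbp2. For second junctions they were -0.16 to 0.23 in Rims2, -0.35 to 0.18 in Erc1 and -0.17 to 0.26 in Unc13b, and for the Rims1 join to 22384029 -1.65 to 0.34. The summed signals of Rims1, Rimbp2, Unc13a and Unc13c and the dominant shares of Erc2 and Unc13b kept their sign throughout. Low read numbers limit Bsn, Pclo, Unc13a and Unc13c, since some libraries hold 0 to 2 of their reads. The deep 5xFAD replicate 3 (Bsn) and WT replicates 2 (Unc13c) and 3 (Unc13a) are among these.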
